A study of Mus musculus with 4 samples.

Results

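The T cell activation response genes described here are 9 genes that T cells are known to switch on, or to keep high, when the antigen receptor is engaged: the transcription factors Irf4, Myc, Nr4a1 and Junb, the cytokines Il2 and Il21, the surface receptors Il2ra and Cd69, and the peroxiredoxin Prdx2. They were named as a set and make up 9 of the 50600 genes counted. They were then divided by position, since 6 of them (Irf4, Myc, Il2, Il2ra, Cd69 and Nr4a1) share no exon base with a gene on the other strand and 3 (Junb, Prdx2 and Il21) do. RNA was sequenced from primary T helper 2 (Th2) cells of mouse strain C57BL/6NJ, in 4 libraries that the labels number as biological replicates 1 to 4 and that carry a single donor identifier. No genotype or treatment was given, sex was not collected, age is unknown, and the time of 16 hours stands in the file names and not in the labels. The labels call the assay total RNA-seq, while the linked library document is named for poly(A)+ RNA and another linked document for CD4+ T cell differentiation. There was 1 group and no resting or unstimulated cells, so induction could not be measured, and the results are levels and their spread over 4 libraries. In these bulk libraries, fewer cells with a transcript and less of it per cell cannot be told apart.

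Engagement of the T cell receptor raises calcium and activates kinases, which bring NFAT, AP-1 and NF-kB factors to the promoters of early response genes. Nr4a1, Junb and Cd69 are among the early genes. Irf4 and Myc follow the strength of the signal and drive differentiation and growth, and IL-2, acting through a receptor that contains the alpha chain encoded by Il2ra, sustains proliferation. Th2 cells are CD4 T cells that make IL-4 and related cytokines.

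The libraries held 1688658 to 2222583 counts assigned to genes, and each counts reads on 1 strand of the annotated gene only (strand option 1 of the counting program). Which strand the library kit keeps is not stated in the labels or headers used here. Genes with an exon opposite them took 90.1 to 93.3% of the counts while making up 16.2% of all genes, and mt-Nd6, the mitochondrial messenger encoded on the other strand from the rest, held 87.2 to 92.0% of the mitochondrial messenger counts. Whether a member's counts come from its own transcript or from the other strand was not tested. Each value below is therefore a level on the counted strand, and is not to be read as the level of the member's own transcript. T cell markers had counts in every library for 8 of 8 genes, with a summed level of 59.1 to 123 TPM (counts divided by exon length, then scaled so that every library has the same sum). Of the 9 Th2 markers, 6 had counts in every library and Il5, Il13 and Il1rl1 were at 0. An exon lies opposite 5 of these 9 genes, Il5 among them, and opposite 1 of the 8 T cell markers. The 3 natural killer markers were at 0, as were 5 of 6 CD8 and cytotoxic markers (all but Cd8b1). Of the B cell list, 2 of 4 genes had counts in every library, with a summed level of 10.3 to 16.5 TPM and no exon opposite. The myeloid list had 4 of 6 genes at 0 and a summed level of 140 to 168 TPM, and 1 of its genes, Csf1r, has an exon opposite. Replicate 3 stood apart in 2 respects: CT010467.1 took 9.40% of its counts against 1.29 to 5.05% in the others, and genes with no exon opposite took 6.70% against 7.75 to 9.93%. Tsix had 3465 and 2990 counts in replicates 1 and 2 and 3 and 4 counts in replicates 3 and 4.

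All 9 members had counts in all 4 libraries, while 31.6% of the 16963 protein-coding genes with no exon opposite and 65.2% of the 4801 with one did. The members' counts summed to 502, 522, 510 and 648 in replicates 1 to 4. Single counts ran from 1 (Nr4a1 in replicate 3) to 179 (Irf4 in replicate 4), so counting error alone is large for the rarer members.

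**Figure D1:**
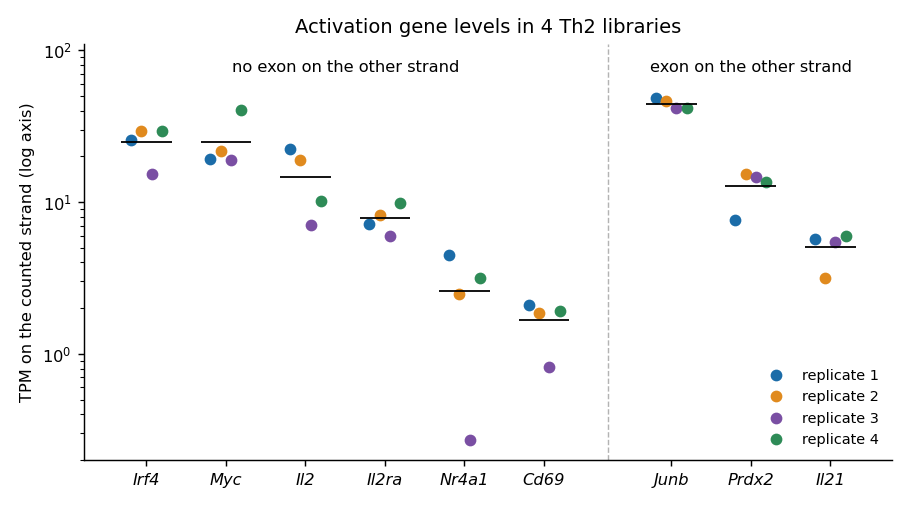
Level of each activation gene in each Th2 library, in TPM on a log axis, with the mean over the 4 libraries as a bar. Junb lies highest, at 41.6 to 48.8 TPM, Cd69 lies lowest by mean, and replicate 3 is the lowest point for each of the 6 genes at the left.

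Irf4 encodes a transcription factor that pairs with BATF-JUN dimers and is required for Th2 differentiation. The gene (ENSMUSG00000021356.9) lies on chromosome 13, 30749226 to 30766927, on the plus strand of mm10, with 4715 exon bases and no gene on the other strand. It had 141, 159, 108 and 179 counts in replicates 1 to 4, which is 25.6, 29.3, 15.3 and 29.6 TPM (25.0 ± 6.67, SD, n = 4). Replicates 1, 2 and 4 lay close together and replicate 3 lay below them, with an exact 95% Poisson interval of 88.6 to 130 counts. Without replicate 3 the mean was 28.2 TPM. The coefficient of variation (CV) was 26.7%, where counting error alone gives 8.25%. Irf4 stood above 98.7% of the protein-coding genes with no exon opposite.

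Myc encodes the transcription factor that drives ribosome production and metabolic growth after activation. The gene (ENSMUSG00000022346.15) lies on chromosome 15, 61985391 to 61990374, plus strand, with 2717 exon bases and no gene opposite. Its counts were 61, 68, 77 and 140, or 19.2, 21.7, 19.0 and 40.2 TPM (25.0 ± 10.2, SD, n = 4). Replicate 4 was 2.01 times the mean of the other libraries, whose values differed little among themselves. Without replicate 4 the mean was 20.0 TPM. The exact 95% interval of the replicate 4 count, 118 to 165, did not reach those of the other libraries, the highest of which ended at 96.2. Myc and Irf4 had the same mean level per length to the digits given, but the level of Myc was 0.751, 0.742, 1.24 and 1.36 times that of Irf4 in replicates 1 to 4.

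Nr4a1 encodes the orphan nuclear receptor Nur77, an early reporter of receptor signal strength. The gene (ENSMUSG00000023034.6) lies on chromosome 15, 101266846 to 101274792, plus strand, with 2474 exon bases and no gene opposite. It had 13, 7, 1 and 10 counts, or 4.50, 2.46, 0.27 and 3.15 TPM (2.59 ± 1.77, SD, n = 4). The single count in replicate 3 gave the widest spread of the 9 members, a CV of 68.1%, and counting error alone gives 35.9%. Without replicate 3 the mean was 3.37 TPM.

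The 250 bases before the Nr4a1 start (RefSeq, GRCm38.p6, chr15:101266596-101266845, plus strand) are shown because CRE-like elements are known in the promoter of this early gene. Capitals mark TGCGTCA, searched on both strands.
Nr4a1 promoter: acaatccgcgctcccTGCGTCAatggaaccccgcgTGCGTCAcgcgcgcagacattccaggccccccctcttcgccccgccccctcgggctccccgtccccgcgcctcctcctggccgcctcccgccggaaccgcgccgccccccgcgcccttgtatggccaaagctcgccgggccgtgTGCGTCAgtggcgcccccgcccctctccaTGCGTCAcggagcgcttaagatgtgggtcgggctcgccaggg
The window holds 4 matches, which begin 235, 215, 71 and 42 bases upstream of the start and do not overlap. Of all 32851 such windows, 1.75% hold at least 1 match and 0.00304% hold 3 or more. The latter share is the Nr4a1 window alone, so it is no independent background. Promoter windows were found for 7 of the 9 members, with none for Myc and Cd69. A match is a run of letters and not a measured site.

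Junb encodes an AP-1 subunit that takes part in IL-4 expression in Th2 cells. The gene (ENSMUSG00000052837.6) lies on chromosome 8, 84974484 to 84978718, minus strand, with 2301 exon bases. Its counts were 131, 122, 143 and 123, or 48.8, 46.0, 41.6 and 41.7 TPM (44.5 ± 3.51, SD, n = 4). Its CV of 7.89% was below the 8.78% that counting error alone gives, and no library stood apart. It was the highest member in TPM, yet it stood above 87.1% of the 4801 protein-coding genes with an exon opposite, a smaller share than Irf4, Myc, Il2, Il2ra or Nr4a1 reached in their own class. Among genes with counts only, Junb stood above 83.9% of 3850 and Nr4a1 above 75.0% of 8454, so the order of these 2 turned. Of its exon bases, 173 (7.52%), from 84974484 to 84974656, lie opposite an exon of Prdx2. None of these lies in an exon of the coding transcript of Junb in GENCODE M21.

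Il2 encodes interleukin 2, the T cell growth factor. The gene (ENSMUSG00000027720.7) lies on chromosome 3, 37120523 to 37125959, minus strand, with 1144 exon bases. It had 30, 25, 12 and 15 counts, or 22.5, 19.0, 7.02 and 10.2 TPM (14.7 ± 7.25, SD, n = 4). Replicates 1 and 2 lay above replicates 3 and 4 without overlap, the CV was 49.4%, and counting error alone gives 22.1%. Tsix, given above, was also higher in replicates 1 and 2 than in replicates 3 and 4, and its part in the Il2 pattern was not tested. Without replicate 3 the mean was 17.2 TPM. Relative to Myc, its level per length was 1.17, 0.873, 0.370 and 0.254 in replicates 1 to 4, a 4.59-fold range. It was 0.877, 0.648, 0.458 and 0.345 times that of Irf4. Il2 shares no exon base with another gene, but Adad1, known for its role in male germ cells, ends inside it. An Adad1 exon of 123 bases, 37121808 to 37121930, lies within an Il2 intron, 590 bases from the nearest Il2 exon. Adad1 had 658, 598, 883 and 863 counts (179 ± 19.8 TPM, SD, n = 4), a total 36.6 times that of Il2. Adad1 was chosen after its values were seen.

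Il21 encodes interleukin 21, a relative of IL-2 that shares the common gamma chain. The gene (ENSMUSG00000027718.8) lies on chromosome 3, 37222759 to 37232636, minus strand, with 5259 exon bases. It had 35, 19, 43 and 40 counts, or 5.70, 3.14, 5.47 and 5.93 TPM (5.06 ± 1.30, SD, n = 4). Replicate 2 lay below the other libraries, which were within a narrow range, and the CV of 25.6% compares with 17.1% from counting error. Gm12534, an antisense gene, lies wholly opposite Il21 and covers 469 of its exon bases (8.92%), of which 35 are coding. It had 1, 0, 0 and 3 counts, so Il21 held the larger count in all 4 libraries. For protein-coding genes with an exon opposite, the median share of exon bases covered was 6.91%. The promoters of Il2, Il21 and Il2ra are shown because NFAT is known to control the IL-2 and IL-21 genes at such sequences. They are RefSeq windows of 250 bases on GRCm38.p6: chr3:37125955-37126204, minus strand, for Il2, chr3:37232637-37232886, minus strand, for Il21, and chr2:11642542-11642791, plus strand, for Il2ra. Capitals mark GGAAA or its reverse complement, the NFAT core.
Il2 promoter: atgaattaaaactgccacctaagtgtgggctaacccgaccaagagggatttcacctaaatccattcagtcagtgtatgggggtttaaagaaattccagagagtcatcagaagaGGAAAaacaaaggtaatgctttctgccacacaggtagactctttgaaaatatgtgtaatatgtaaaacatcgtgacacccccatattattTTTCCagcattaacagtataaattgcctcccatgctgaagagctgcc
Il21 promoter: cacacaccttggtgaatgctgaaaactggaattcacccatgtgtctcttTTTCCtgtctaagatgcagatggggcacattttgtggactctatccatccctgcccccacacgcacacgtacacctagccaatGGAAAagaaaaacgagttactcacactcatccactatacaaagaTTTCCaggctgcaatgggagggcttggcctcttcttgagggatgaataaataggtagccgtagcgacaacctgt
Il2ra promoter: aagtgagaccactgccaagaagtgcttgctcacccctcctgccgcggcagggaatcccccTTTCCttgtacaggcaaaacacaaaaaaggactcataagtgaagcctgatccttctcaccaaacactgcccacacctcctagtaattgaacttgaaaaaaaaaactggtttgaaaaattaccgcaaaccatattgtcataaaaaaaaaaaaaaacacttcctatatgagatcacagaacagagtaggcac
Il2 holds 2 matches, beginning 137 and 47 bases upstream, and Il21 holds 3, at 201, 118 and 74. Il2ra holds 1, at 190. Of the 32851 windows, 55.6% hold at least 1 GGAAA match, 21.4% hold 2 or more and 6.39% hold 3 or more. TATAAA begins 31 bases upstream in Il2 and 26 in Irf4, and 12.4% of windows hold it. The AP-1 letters TGANTCA were in none of the 7 windows and in 6.75% of all.

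**Figure D2:**
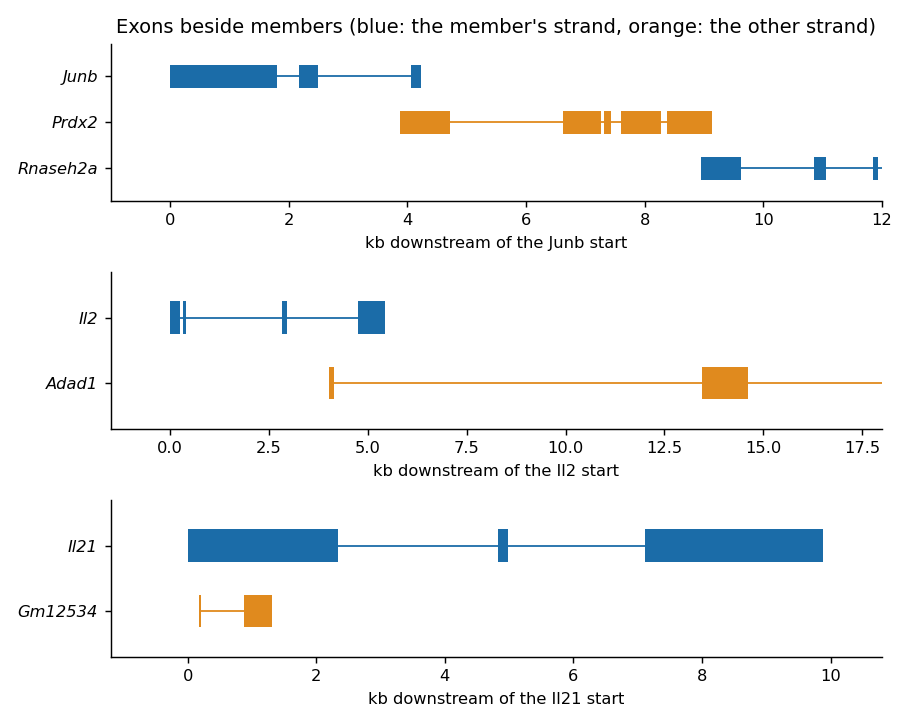
Exons of Junb and Prdx2 with Rnaseh2a, of Il2 with Adad1, and of Il21 with Gm12534, drawn to scale along the distance in kb downstream of the start of the named member, with blue for the member's strand and orange for the other. Junb and Prdx2 overlap at 1 end by 173 exon bases, the Adad1 exon falls between Il2 exons, and Gm12534 lies opposite exon sequence of Il21.

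Il2ra encodes CD25, the alpha chain that raises the affinity of the IL-2 receptor. The gene (ENSMUSG00000026770.5) lies on chromosome 2, 11642807 to 11693193, plus strand, with 5711 exon bases and no gene opposite. It had 48, 54, 51 and 72 counts, or 7.20, 8.21, 5.98 and 9.83 TPM (7.80 ± 1.63, SD, n = 4). Its CV of 20.9% was the lowest of the 6 members with no exon opposite, and counting error alone gives 13.3%. Il2 exceeded Il2ra per length 3.12-fold and 2.31-fold in replicates 1 and 2, and 1.17-fold and 1.04-fold in replicates 3 and 4.

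Cd69 encodes a surface lectin that appears early after activation and holds cells in the tissue. The gene (ENSMUSG00000030156.5) lies on chromosome 6, 129267325 to 129275436, minus strand, with 6509 exon bases and no gene opposite. It had 16, 14, 8 and 16 counts, or 2.11, 1.87, 0.822 and 1.92 TPM (1.68 ± 0.58, SD, n = 4). Replicate 3 was the lowest, and the CV of 34.5% lay near the 27.2% of counting error. It was the lowest member by mean, above 83.2% of the protein-coding genes of its class and above 66.2% of the 8454 of them with counts.

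Prdx2 encodes a peroxiredoxin that removes hydrogen peroxide. The gene (ENSMUSG00000005161.15) lies on chromosome 8, 84969587 to 84974834, plus strand, beside Junb, with 3050 exon bases. It had 27, 54, 67 and 53 counts, or 7.58, 15.4, 14.7 and 13.5 TPM (12.8 ± 3.56, SD, n = 4). Replicate 1 lay below the other libraries, which overlapped closely. Of its exon bases 350 (11.5%) lie opposite another gene, 173 opposite Junb and 177 opposite Rnaseh2a, with none in coding sequence. Rnaseh2a, which encodes the catalytic subunit of RNase H2, had 1027, 1171, 1532 and 1261 counts (278 ± 19.0 TPM, SD, n = 4), a total 24.8 times that of Prdx2. Junb exceeded Prdx2 per length in every library, 6.43-fold in replicate 1 and 2.83-fold to 3.08-fold in the others. On the log2(TPM + 1) scale Prdx2 minus Junb was -1.76 ± 0.52 (SD, n = 4), with an exact two-sided sign-flip p of 0.13, the smallest that 4 libraries allow.

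By mean TPM, the order was Junb, Irf4 and Myc, Il2, Prdx2, Il2ra, Il21, Nr4a1 and Cd69. Of the neighbours in that order, only Junb and Irf4, and Il2ra and Il21, had ranges over the libraries that did not overlap. Of the overlapping neighbours, Prdx2 over Il2ra and Il21 over Nr4a1 were higher in 4 of 4 libraries, with gaps between means of 1.4 and 1.39 times the larger SD, and Myc over Il2 was higher in 3 of 4, with a gap of 1.02. Irf4 and Myc, Il2 and Prdx2, and Nr4a1 and Cd69 had means closer than the larger SD. Averaged over members, log2(TPM + 1) was 3.22 for the 6 with no exon opposite and 3.94 for the 3 with one. The difference was -0.72 ± 0.50 (SD, n = 4), at -0.37, -0.50, -1.47 and -0.55 in replicates 1 to 4. Leaving out replicate 3 moved it to -0.47. No test was made, since the direction rests on which members fall on each side.

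Variation between the replicates was tested for every gene with sufficient counts, by edgeR's quasi-likelihood dispersion against the trend for genes of that abundance, with Benjamini-Hochberg adjustment. The test called 22 of 4918 genes (0.447%), and 281 (5.71%) had an unadjusted p under 0.05. Of the members, 6 were tested (Irf4, Myc, Il2ra, Il21, Junb and Prdx2), none was called and 0 had an unadjusted p under 0.05. A chi-square test of residuals around DESeq2's fitted dispersion trend (the DESeq2-based test) also called none of them. Il2, Cd69 and Nr4a1 did not pass the filter on low counts. Myc had the largest ratio of dispersion to trend, 2.76 (edgeR adjusted p = 0.885), which 6.24% of tested genes exceeded. Irf4 followed at 2.42 (edgeR adjusted p = 0.936) and Prdx2 at 1.74. Il21, Il2ra and Junb lay below the trend, at 0.871, 0.460 and 0.320. Fitted over the genes with no exon opposite alone, Il2 passed the filter and had an edgeR adjusted p of 0.864, with an unadjusted p under 0.05.

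**Figure D3:**
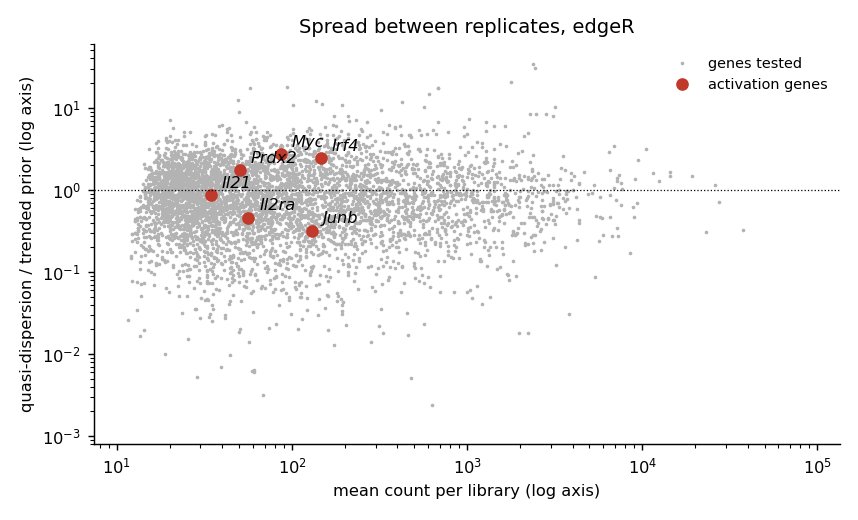
Ratio of each gene's quasi-dispersion to the trended value (log axis) against its mean count per library (log axis), for the 4918 genes tested, with the 6 tested activation genes in red. Myc at 2.76 and Irf4 at 2.42 lie above the trend, marked at 1, and Junb at 0.320 lies below it.

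Replicate 3 was the lowest library for 6 of 6 members with no exon opposite in TPM, where 60.1% of 2511 protein-coding nuclear genes of that class with a mean count of at least 10 were lowest there. Scaled instead over the genes with no exon opposite, 5 of 6 members and 57.7% of those genes were lowest in replicate 3, and Myc was lowest in replicate 1. The median fold of replicate 3 over the mean of the other libraries was 0.482 for the 6 members in TPM, against 0.676 for the 2511 genes. The sets are unlike, since the 6 include Nr4a1, whose mean count of 7.75 is under the minimum set for the 2511. Replicate 3 also had the lowest share of counts on genes with no exon opposite, and the part of that share in this pattern was not tested. Replicate 4 was highest for Irf4, Myc and Il2ra in TPM, and 57.4% of the 2511 genes were highest there. On the other scale it was highest for 2 of 6 members. Il2, Cd69 and Nr4a1 were highest in replicate 1 on both scales.

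**Figure D4:**
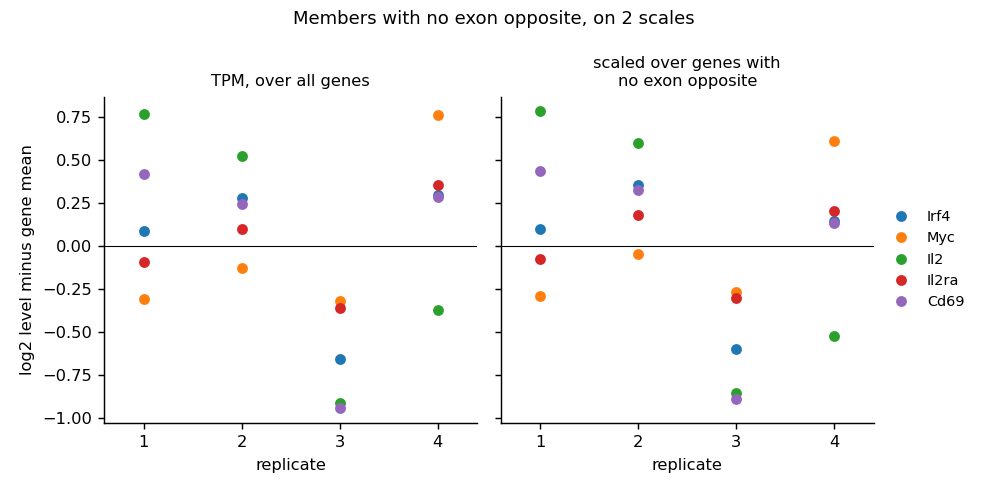
Log2 level of 5 members with no exon opposite minus the gene's mean, by replicate, in TPM at the left and scaled over genes with no exon opposite at the right. Nr4a1 is left out for its single count in replicate 3. On both scales replicate 3 lies below 0 for all 5, and Myc is highest in replicate 4 while Il2 is highest in replicate 1.

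The growth genes that Myc is known to act on, for nucleolar work, amino acid uptake and nucleotide synthesis, were all counted in every library (14 of 14). Of the 11 with no exon opposite, 6 (54.5%) were highest in replicate 4 and 8 (72.7%) were lowest in replicate 3, on both scales. Over the 2511 genes of that class the shares in TPM were 57.4% and 60.1%, so in TPM the share highest in replicate 4 was near that of all genes. Scaled over genes with no exon opposite they were 40.5% and 57.7%, below the growth genes' shares, and the difference was not tested. Ncl, a nucleolar protein, was at 131, 121, 85.8 and 173 TPM. Npm1, a ribosome assembly factor, was at 357, 353, 262 and 475 TPM. Slc7a5, an amino acid transporter, was at 5.54, 4.21, 5.05 and 11.8 TPM, and its replicate 4 was 2.39 times the mean of the others. Nme1, a nucleoside diphosphate kinase, was at 2.82, 4.42, 1.00 and 0.70 TPM, with replicate 4 at 0.255 times the others. The median of this fold was 1.47 over the 11 growth genes and 1.36 over the 2511 genes. The 11 were not held to the minimum mean count of the 2511, and Nme1, with 11, 17, 5 and 3 counts, is under it. Odc1, Cad, Slc3a2, Tfrc and Nme1 were not highest in replicate 4. In the test across genes 13 were tested, and none was called by edgeR or the DESeq2-based test. Of these, 7 had an unadjusted edgeR p under 0.05, where 281 of all 4918 genes tested (5.71%) did. The smallest edgeR adjusted p was 0.233. Ncl, Npm1, Nolc1, Cad and Srm are those of the 7 with no exon opposite. Fitted over the genes of that class alone, their unadjusted edgeR p was 0.785, 0.951, 0.69, 0.0876 and 0.116. In that fit Ncl and Npm1 each had an edgeR adjusted p of 0.993.

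**Figure D5:**
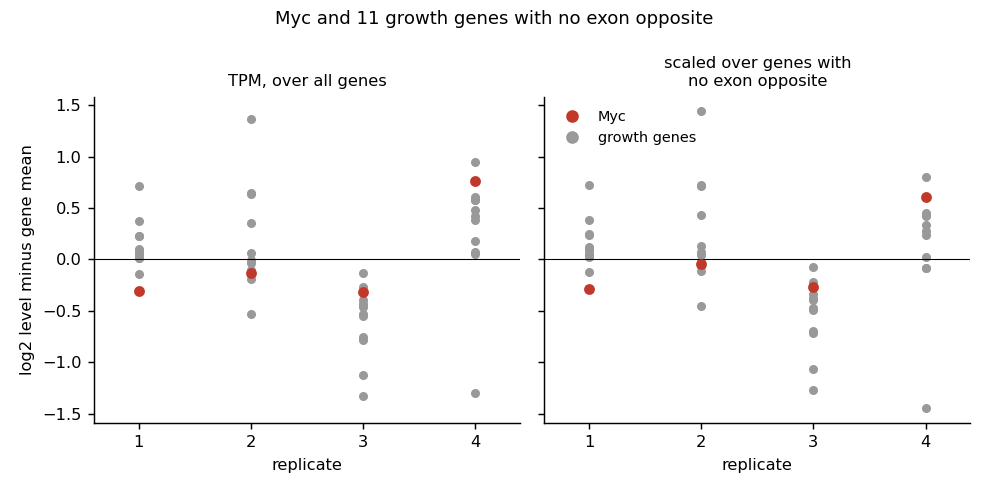
Log2 level minus the gene's mean for Myc (red) and 11 growth genes with no exon opposite (grey), by replicate, on the same 2 scales. Replicate 4 lies highest for Myc and for 6 of the 11 growth genes, and replicate 3 lowest for 8 of them.

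Other genes of the activation programme came from 8 further lists, with 99 genes in all. Of these 34 had enough counts to be tested for variation, and edgeR and the DESeq2-based test called 0 of the 34. Jund, Nfkb1, Rel and Mxd3, 4 of the 34, had an unadjusted edgeR p under 0.05, where 5.71% of all 4918 genes tested did. Of 16 immediate early factors, which are switched on without new protein, 9 had counts in every library and 3 were tested. Fosl1 and Ier2 were the highest of those with no exon opposite, at 23.7 ± 8.08 and 13.8 ± 6.71 TPM (SD, n = 4). Of 9 IRF and BATF factors 8 had counts in every library, and Batf, the partner of Irf4, was at 8.29 ± 1.90 TPM. Of 15 genes of receptor signalling, NFAT and NF-kB all had counts in every library, led by Zap70 at 13.1 ± 2.68 and Prkcq at 11.4 ± 2.26 TPM, both kinases. Among the Myc network, Max, the dimer partner of Myc, was at 5.97 ± 1.66 TPM, and Mycn and Mycl were at 0 in all 4 libraries, where 3 counts is 1.35 to 1.78 CPM (counts scaled to the same sum, without length).

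The highest list genes with an exon opposite included Jund at 41.5 ± 17.8 TPM (SD, n = 4), a JUN relative that lies opposite Gm11175. Mxd3, an antagonist of Myc, was at 396 ± 103 TPM opposite Prelid1, and Irf5 was at 702 ± 28.7 TPM opposite Tnpo3. Mxd3 had 873 to 1244 counts per library, and Prelid1 had a mean of 19.2. Irf5 had 2285 to 2970 counts, and Tnpo3 had a mean of 38.2. Jund had 57 to 141 counts, and Gm11175 had a mean of 12464. Whether such counts come from the named gene or from the other strand was not tested. The common gamma chain list of 18 genes had 13 with counts in every library. Il4, the cytokine that defines Th2 cells, was at 7.43 ± 2.30 TPM (SD, n = 4), and Il7, Il9, Il15 and Il9r were at 0. All 11 activation surface molecules had counts in every library, led by Tnfrsf4 (OX40) at 14.9 ± 6.90 and Cd5 at 13.8 ± 5.80 TPM. In the redox list of 12 genes around Prdx2, 11 had counts in every library, and Sod1, a superoxide dismutase, was the highest with no exon opposite at 95.6 ± 31.0 TPM. Tcf7, a factor of resting and memory cells, was at 27.5 ± 9.48 TPM. For genes with no exon opposite the median level was 3.75 TPM for receptor signalling, 1.92 for surface molecules, 13.8 for growth genes and 0.705 for immediate early factors. It was 11.2 TPM for the 6 members and 0.00 for all protein-coding genes of that class.

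The genes with the profile most like each member over the 4 libraries were chosen by the root mean square difference of centred log2 values, among 2513 genes with no exon opposite or 2309 with one. They were Rpl27 and Caprin1 for Irf4 (0.0207 and 0.023), Ppp1r9b and Kpna1 for Myc (0.0383 and 0.0544), and Rab3ip and Rae1 for Il2 (0.0514 and 0.0727). For Il2ra they were Zfp36l2 and Ptges3 (0.0168 and 0.032) and for Cd69 Fyco1 and Gcc2 (0.0129 and 0.0371). For Junb they were Tulp4 and Atp2c1 (0.0151 and 0.0166), for Prdx2 Cspp1 and Gdap2 (0.0957 and 0.0993), and for Il21 4930430F08Rik and Tmem42 (0.0651 and 0.0779). The median difference over all candidates ran from 0.243 for Junb to 0.709 for Il2, and the genes named are the closest by selection. Some have few counts, such as Kpna1 with 8, 9, 10 and 20 and Fyco1 with 14, 12, 7 and 14. These likenesses are descriptions over 4 libraries.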

How the data were processed

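Gene counts were deposited as raw read counts with featureCounts 1.4.6-p4, GENCODE M13 and strand option 1, per the file headers, and were used with the deposited lengths and exon coordinates of mm10. No aligner is named in the labels or headers used. Names came from GENCODE M21 (99.6% of 50600 genes). Exons on opposite strands were intersected with bedtools 2.31.1. TPM was computed here over all genes. The variation test was an intercept-only edgeR 4.0.16 quasi-likelihood model in R 4.3.3, with 3 residual degrees of freedom and the upper tail of the quasi-dispersion over the trended prior. As an alternative, size factors and a fitted dispersion trend were taken from DESeq2 1.42.0. The squared residuals around them were then tested by chi-square, a step that is not part of DESeq2. Other steps used Python 3.11.15, pandas 2.3.3, numpy 2.4.6 and scipy 1.17.1. The test was checked on simulated data. Intervals cover counting error only.

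The labels do not say that the 4 libraries came from separate animals or cultures, and they share 1 donor identifier, so p-values here reflect only how far these samples differ. That spread may be technical in part. The Tsix counts differ between replicates 1 and 2 and replicates 3 and 4 far beyond counting error, and the source of that difference was not tested. The members and lists were chosen with earlier results of these data known. Named genes are the members, genes with exons opposite theirs, the 2 highest of each list with no exon opposite and the highest with one (not every one is printed), and the 2 most similar profiles per member. Growth genes other than Npm1 and Ncl, and Adad1, were named after their values were seen. Libraries were grouped by the labels. The result of 1 marker gene is not reported here.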

Additional observations from a re-analysis of the deposited data

Results flagged for a closer look

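In 2 of the 9 members 1 library lay far from the others, by a gap over the range above the critical value of 0.829 for 4 samples. Myc reached 40.2 TPM in replicate 4, with a gap of 0.87 of the range. Il21 was at 3.14 TPM in replicate 2, with a gap of 0.836 of the range. Chance alone passes this rule in about 1 of 20 groups.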

How the results depend on the processing

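No paired comparison of groups was possible because there was 1 group. Prdx2 and Junb were paired within library. The count of varying genes, 22, was 2 with library totals only, 56 with no filter on low counts, 9 over genes with no exon opposite alone, and 11 to 21 without 1 replicate. It was 22 with DESeq2 size factors and 18 with the DESeq2-based test. No member was called under these settings, with smallest adjusted p of 0.613 to 1. The median level of the members, 12.8 TPM, was 26.5 in CPM, 54.7 scaled over protein-coding nuclear genes and 154 over genes with no exon opposite, which differ by construction. With 1 to 179 counts per member and library, small differences were not detectable at this depth.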

Other observations

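Genes of other lists differed in which library was highest. Of 12 receptor signalling genes with no exon opposite, 11 were highest in replicate 4 in TPM, Lck being the exception, and 10 were scaled over genes with no exon opposite, where Nfatc1 joined it. Of 10 activation surface molecules, 9 were lowest in replicate 3, and 5 were highest in replicate 1 and 4 were highest in replicate 2 in TPM. Over 2511 protein-coding nuclear genes of that class, 57.4% were highest in replicate 4 in TPM and 40.5% on the other scale. These have a mean count of at least 10, a limit not set for the lists. The difference between the lists was not tested.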
